A study of Mus musculus with 4 samples.

Results

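Among the CD8+ T cells of KPC tumours, 154 cells carried Gzmk transcripts but no Havcr2 and at most 1 of the checkpoint genes Lag3 and Pdcd1. They came from 23011 leukocytes that passed the quality limits. They were selected on the measured values of these genes, by a gate on unique molecular identifiers (UMIs, each tagging a captured RNA molecule) as deposited, and not by clustering. A member had 300 to 5000 detected genes, at most 6% mitochondrial UMIs, a UMI of a CD3 gene (Cd3e, Cd3d or Cd3g) and of Cd8a or Cd8b1, no Cd4, and at least 1 Gzmk UMI. It had no Havcr2, at most 1 of Lag3 and Pdcd1, fewer than 5 UMIs of Gzmc to Gzmf, fewer than 2 of the Ly49 genes Klra1, Klra6 and Klra7, and fewer than 2 of the proliferation genes Mki67 and Top2a. Because members were chosen by these values, the level of each of these genes is a description and was not tested. The cells had been proposed as memory-like with Gzmk, Ly6c2, Xcl1, Crtam and Slamf7 as markers. Because Xcl1 and Crtam did not set them apart from their closest neighbours (below), they are called Gzmk+ checkpoint-low CD8 cells here. Checkpoint-low refers to Havcr2, Lag3 and Pdcd1 only, and not to other checkpoint receptors.

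KPC is a mouse pancreatic cancer line, grown under the skin of young adult male C57BL/6NHsd mice of the same genetic background. There were 4 groups with 1 library each: untreated, STING agonist (ADU-S100, injected into the tumour), LTbR agonist (the antibody 4H8 against the lymphotoxin-β receptor, given into the peritoneum), and STING and LTbR agonist, called the combination. Per the paper, the STING agonist was given in a single injection on the first day of treatment, and the antibody repeatedly over the following days. Tumours were resected some days after the last antibody dose. Those of a group were pooled, and live CD45+ leukocytes were sorted for 5′ single-cell RNA sequencing. No value per animal exists, so treatments are compared as values with counting intervals and without a test.

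Granzymes are serine proteases that cytotoxic lymphocytes release from granules. Granzyme K is often found in CD8 T cells that are not fully cytotoxic, and its gene lies beside that of granzyme A. Memory and stem-like CD8 T cells keep the transcription factors TCF-1 (Tcf7) and LEF-1, and use CCR7 to enter lymph nodes and S1PR1 to leave tissue. Chronically stimulated tumour T cells instead carry checkpoint receptors, TOX and CD39 (Entpd1). In the GENCODE M21 annotation of mm10, the build of the deposited counts, Gzmk lies on chromosome 13 from 113171608 to 113225908 and Gzma on the same chromosome from 113093825 to 113100981, both on the minus strand.

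The filtered libraries held 6783 untreated, 3748 STING agonist, 7147 LTbR agonist and 5333 combination cells, with median depths of 5750 to 7094 UMIs. The 4 libraries are given in this order throughout. Members had medians of 4856, 5352.5, 3642 and 3648 UMIs, and 1 UMI in their summed counts was worth 4.28 to 5.40 CPM, the unit of UMIs scaled to a common total that is used for all levels below. Of the filtered cells 492 had a barcode that also occurred in another library, including 2 members, and no barcode was a member in both.

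Members numbered 41, 32, 40 and 41. Their share of all filtered cells was 0.604% (exact 95% interval 0.434 to 0.819), 0.854% (0.585 to 1.20), 0.560% (0.400 to 0.761) and 0.769% (0.552 to 1.04). The ratio to untreated was 1.41 under the STING agonist (0.714 to 2.77), 0.926 under the LTbR agonist (0.488 to 1.75) and 1.27 under the combination (0.674 to 2.40). Each of these ratio intervals sets the lower limit of 1 share against the upper limit of the other, and is wider than a 95% interval of the ratio. All include 1, so no change in their share was detectable in this way at these cell numbers. Of the CD8-gated cells they made up 3.90%, 5.36%, 4.36% and 3.76%.

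Most CD8 cells with Gzmk lay outside the gate. Members were 10.6% to 14.9% of the CD8 cells with a Gzmk UMI, and 32.0% to 37.8% of the cells with checkpoint transcripts (Havcr2, or at least 2 of Havcr2, Lag3 and Pdcd1) also carried Gzmk. The CD8 gate further held 495 cycling cells, 189 cells with granzymes C to F, 131 Ly49 cells, 2060 checkpoint cells and 626 cells that met every limit of the rule except Gzmk. The last are called Gzmk-negative cells, and numbered 134, 65, 185 and 242.

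Among checkpoint-low CD8 cells, the Gzmk+ share was 23.4% (17.4 to 30.4) in untreated tumours, 33.0% (23.8 to 43.3) under the STING agonist, 17.8% (13.0 to 23.4) under the LTbR agonist and 14.5% (10.6 to 19.1) under the combination. The interval of the STING agonist library lay above those of the LTbR agonist and the combination, and all 3 overlapped the untreated interval. Cells of at least 2000 UMIs were also thinned to 2000, and the others left out. The shares were then 15.2% (11.5 to 19.7), 22.3% (16.6 to 29.0), 13.2% (9.93 to 17.0) and 11.4% (8.52 to 14.9), in the same order of size. They were shares of 315, 188, 380 and 411 checkpoint-low cells, against 175, 97, 225 and 283 without thinning, so the pools of cells differ. The STING agonist interval then overlapped that of the LTbR agonist and stayed above that of the combination. The number of Gzmk-negative cells was highest in the combination library, whereas that of members hardly differed between libraries.

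**Figure D1:**
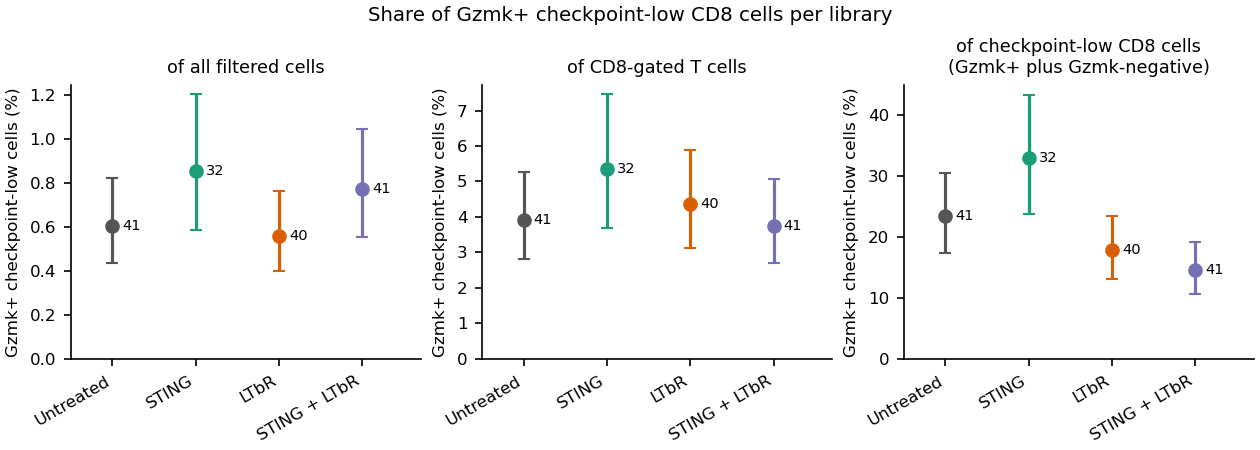
Share of Gzmk+ checkpoint-low CD8 cells in each library (vertical axis, percent), of all filtered cells, of CD8-gated T cells and of checkpoint-low CD8 cells. Bars are exact 95% intervals and the number beside each point counts the members. The intervals overlap between libraries except in the right panel, where 33.0% (STING agonist) stands above 17.8% (LTbR agonist) and 14.5% (combination).

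Gzmk was a low-count transcript, and the gate turned on single molecules. The members held 86, 97, 79 and 77 Gzmk UMIs, and 79 of the 154 cells (51.3%) had exactly 1. The median was 1 and the highest 11. In the STING agonist library 34.4% had a single UMI, against 53.7%, 52.5% and 61.0% in the others. No B cell had a Gzmk UMI (0 of 46, 12, 126 and 428, with exact upper limits of 7.71%, 26.5%, 2.89% and 0.858%), at median depths of 4029.5 to 5004 UMIs. Of macrophages 0.204% to 0.422% had one, at medians of 9430.5 to 11601 UMIs. The 626 Gzmk-negative cells lay just outside the rule by this limit alone, and 123 cells with 2 of the checkpoint genes by the checkpoint limit alone. A member often had 1 checkpoint gene: 92 of 154 (59.7%) carried Lag3 or Pdcd1. The rule set no limit on other checkpoint receptors. Ctla4 was found in 25, 21, 22 and 28 members and Tigit in 18, 13, 14 and 25.

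Membership also depended on depth. Thinning to 2000 UMIs left out 690, 399, 958 and 574 cells under that depth, among them 0, 2, 3 and 2 members. In the thinned cells the rule gave 48, 42, 50 and 47 members, of which 25, 18, 21 and 21 had been members before thinning.

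**Figure D2:**
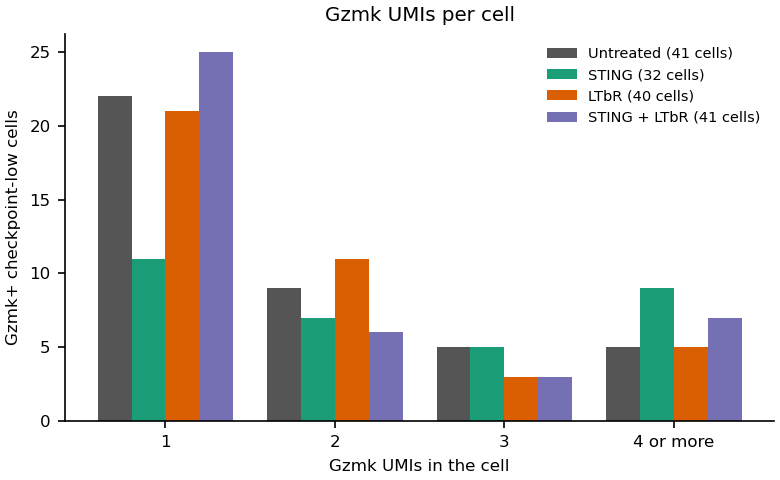
Number of Gzmk+ checkpoint-low CD8 cells (vertical axis) by their count of Gzmk UMIs (horizontal axis), with 1 bar per library. The bar at 1 UMI is the tallest in each library, 22, 11, 21 and 25 cells.

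Most of the cells carried αβ receptor transcripts. Trac, Trbc1 or Trbc2 was found in 142 of 154 (92.2%, exact interval 86.8 to 95.9) and a γδ receptor constant gene (Trdc, Tcrg-C1, Tcrg-C2 or Tcrg-C4) in 17. Tcrg-C2 was found in 5, 0, 7 and 3 members, and any of the other 3 in 2. Both Cd8a and Cd8b1 were found in 77.3%, and no member had a UMI of Foxp3, which marks regulatory T cells. Ccl5 was nearly universal (98.1%) and Ly6c2 common (86.4%). Gzma or Gzmb was present in 65.6%, Tcf7 or Lef1 in 63.6%, and both kinds in 39.0% of cells.

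The β-chain variable gene with the most UMIs could be read in 133 members. Trbv3 led in 16 of them (exact interval 7.04% to 18.8%), 9 of which came from the untreated library. Trbv12-2 led in 15, and Trbv12-1 and Trbv19 in 14 each. Trbv12-1 was spread over all libraries (4, 5, 2 and 3 cells). It led in 10.5% (5.88 to 17.0) of members, 6.31% (4.23 to 8.99) of Gzmk-negative cells and 1.54% (1.02 to 2.23) of checkpoint cells. Trbv29 led in 3.76% (1.23 to 8.56), 7.66% (5.36 to 10.5) and 15.6% of these classes. Trbv12-1 and Trbv12-2 are close copies, so their counts are uncertain, and segments alone do not show clones.

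Members were first compared with the Gzmk-negative cells of the same library, the contrast that differs from the rule in Gzmk alone. UMIs were summed per library and class and tested with edgeR's quasi-likelihood test with library as a block, with Benjamini-Hochberg adjustment over 4429 genes. In this contrast 35 genes were higher (0.79% of those tested) and 33 lower (0.745%). The higher genes included those of cytotoxic granules, Ccl5 and interferon-stimulated genes, and the lower ones 4 of the memory and stem-like list.

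Gzma, the neighbour of Gzmk, was measured in members at 655, 394, 1355 and 524 CPM and in Gzmk-negative cells at 139, 95.7, 85.5 and 81.6 CPM. Every member value was above every Gzmk-negative value, and the log2 ratio was 2.82 ± 0.26 (SE, 4 libraries, edgeR adjusted p = 4.05e-05). A few cells held much of it: 52 of 154 members (33.8%) had a Gzma UMI, and the top cell gave 24.2% to 44.7% of the Gzma UMIs of its library. Ccl5, a chemokine that draws T cells and monocytes, stood at 9874, 9614, 6290 and 6797 CPM against 3457, 2924, 2640 and 2914 CPM. It was higher in 4 of 4 libraries, with a log2 ratio of 1.45 ± 0.10 (edgeR adjusted p = 1.45e-06). Nkg7, needed for granule release, reached 2158, 2498, 2114 and 2429 CPM against 1455, 1466, 1441 and 1274 CPM, a log2 ratio of 0.73 ± 0.10 (edgeR adjusted p = 0.00348).

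Of 11 cytotoxicity genes tested, 4 were higher (Gzma, Gzmb, Nkg7 and Fasl) and none lower, with a median log2 ratio of 0.30 against 0.01 over all genes tested. Gzmb was at 993, 1570, 1670 and 556 CPM in members and at 449, 451, 309 and 509 CPM in Gzmk-negative cells, so that the combination library showed little difference. Its log2 ratio was 1.42 ± 0.26 (edgeR adjusted p = 0.0234). Perforin (Prf1), the pore-forming partner of the granzymes, was not called: it was at 133, 130, 112 and 130 CPM in members and 74.9 to 176 CPM in Gzmk-negative cells (log2 ratio 0.13 ± 0.21, edgeR adjusted p = 0.824).

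Memory and homing genes went the other way in this contrast. Of 13 genes of the memory and stem-like list, 4 were lower, among them Ccr7, Satb1 and Bach2, and none higher, with a median log2 ratio of -0.64. Ccr7 was at 47.1, 104, 20.4 and 43.2 CPM against 163, 89.5, 228 and 292 CPM, with the STING agonist library running opposite (log2 ratio -1.80 ± 0.39, edgeR adjusted p = 0.0349). Satb1 and Bach2, which restrain effector differentiation, were lower in 4 of 4 libraries by log2 ratios of -1.10 ± 0.17 and -0.87 ± 0.19. Tcf7 itself was not called, at 111, 192, 209 and 167 CPM against 188, 225, 295 and 348 CPM (log2 ratio -0.62 ± 0.18, edgeR adjusted p = 0.104), and neither was the interleukin-7 receptor Il7r (-0.64 ± 0.17, edgeR adjusted p = 0.0714).

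Of the 4 proposed markers other than Gzmk, 2 were higher than in Gzmk-negative cells. Ly6c2, a surface protein of memory and effector CD8 cells, stood at 2334, 3281, 2246 and 1485 CPM against 1775, 1593, 1571 and 1216 CPM (log2 ratio 0.59 ± 0.12, edgeR adjusted p = 0.0334). Slamf7, a receptor of the SLAM family, stood at 193, 98.5, 153 and 130 CPM against 92.4, 89.5, 73.0 and 65.6 CPM (0.89 ± 0.21, edgeR adjusted p = 0.0438). Xcl1, the chemokine for cross-presenting dendritic cells, was at 8.56, 124, 56.0 and 81.0 CPM against 245, 151, 74.1 and 48.8 CPM, lower in 3 of 4 libraries (-0.87 ± 0.47, edgeR adjusted p = 0.384). Crtam was at 42.8, 41.5, 10.2 and 43.2 CPM against 42.0, 89.5, 45.6 and 23.6 CPM (-0.44 ± 0.38, edgeR adjusted p = 0.626). Xcl1 and Crtam were found in 18 and 21 of 154 members.

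Interferon-stimulated genes were higher in members for 3 of 13 tested and lower for none, with a median log2 ratio of 0.74. Their summed level was 5160, 5602, 4680 and 2505 CPM in members against 3440, 2618, 2448 and 2401 CPM, so that the combination library showed little difference. Isg20, an exonuclease, was at 197, 202, 168 and 130 CPM against 72.3, 61.7, 71.9 and 95.1 CPM (1.20 ± 0.22, edgeR adjusted p = 0.0234). Zbp1, a sensor of Z-form nucleic acids, was at 274, 332, 280 and 146 CPM against 143, 148, 116 and 116 CPM (0.97 ± 0.19, edgeR adjusted p = 0.0304). Ifi27l2a was the third (0.93 ± 0.17, edgeR adjusted p = 0.0231). Among the largest other changes, Ifit1bl1 (1.48), Baiap3 (1.26), Ctla2b (1.19), Wdr95 (1.38) and Cdc34 (1.00) were higher in 4 of 4 libraries, but none of them was called in more than 5 of its 8 to 10 alternatives (Baiap3 in 2 of 8, Cdc34 in 4 of 10). Ikzf2, which encodes Helios, was lower (-2.18), as were Cxcl2 (-2.32), Fabp5 (-1.88), Kctd12 (-1.86), Kcnq5 (-1.85), Aven (-1.70), Elovl6 (-1.70), Irf8 (-1.57) and Myc (-1.54), all log2 ratios in edgeR calls. Ikzf2 and Irf8 were called in 8 of 11 alternatives and Kcnq5 in 8 of 10. Myc was called in 5 of 10, Cxcl2, Kctd12 and Elovl6 in 4 of 9, and Fabp5 and Aven in 3 of 8.

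No gene of the tissue residency (6 tested), exhaustion (10), effector differentiation (7), cytokine receptor (14) or heat shock (5) lists was called against Gzmk-negative cells. Among receptors for chemokines and homing, Ccr2 was higher, at 291, 187, 250 and 108 CPM against 178, 136, 96.9 and 64.0 CPM (0.87 ± 0.19, edgeR adjusted p = 0.0357). In the T cell identity list Cd5 and Trac were higher (2 of 7), and in the immediate early list Dusp2 was higher and Nr4a3 lower (12 tested). The residency integrin Itgae gave 1 UMI in all members together.

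Calls in this contrast depended on single libraries. Without the untreated library it gave 3 higher genes and 1 lower, and without the LTbR agonist library 3 and 3. Gzma, Ccl5 and Nkg7 remained higher in all 11 alternative analyses, whereas Slamf7 was called in 4 of 11, Ly6c2 in 6 of 11, Ccr7 in 5 of 10, Isg20 and Gzmb in 8 of 11, Zbp1 in 7 of 11, Ccr2 and Cd5 in 5 of 11 and Fasl, Trac and Dusp2 in 4 of 11.

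**Figure D3:**
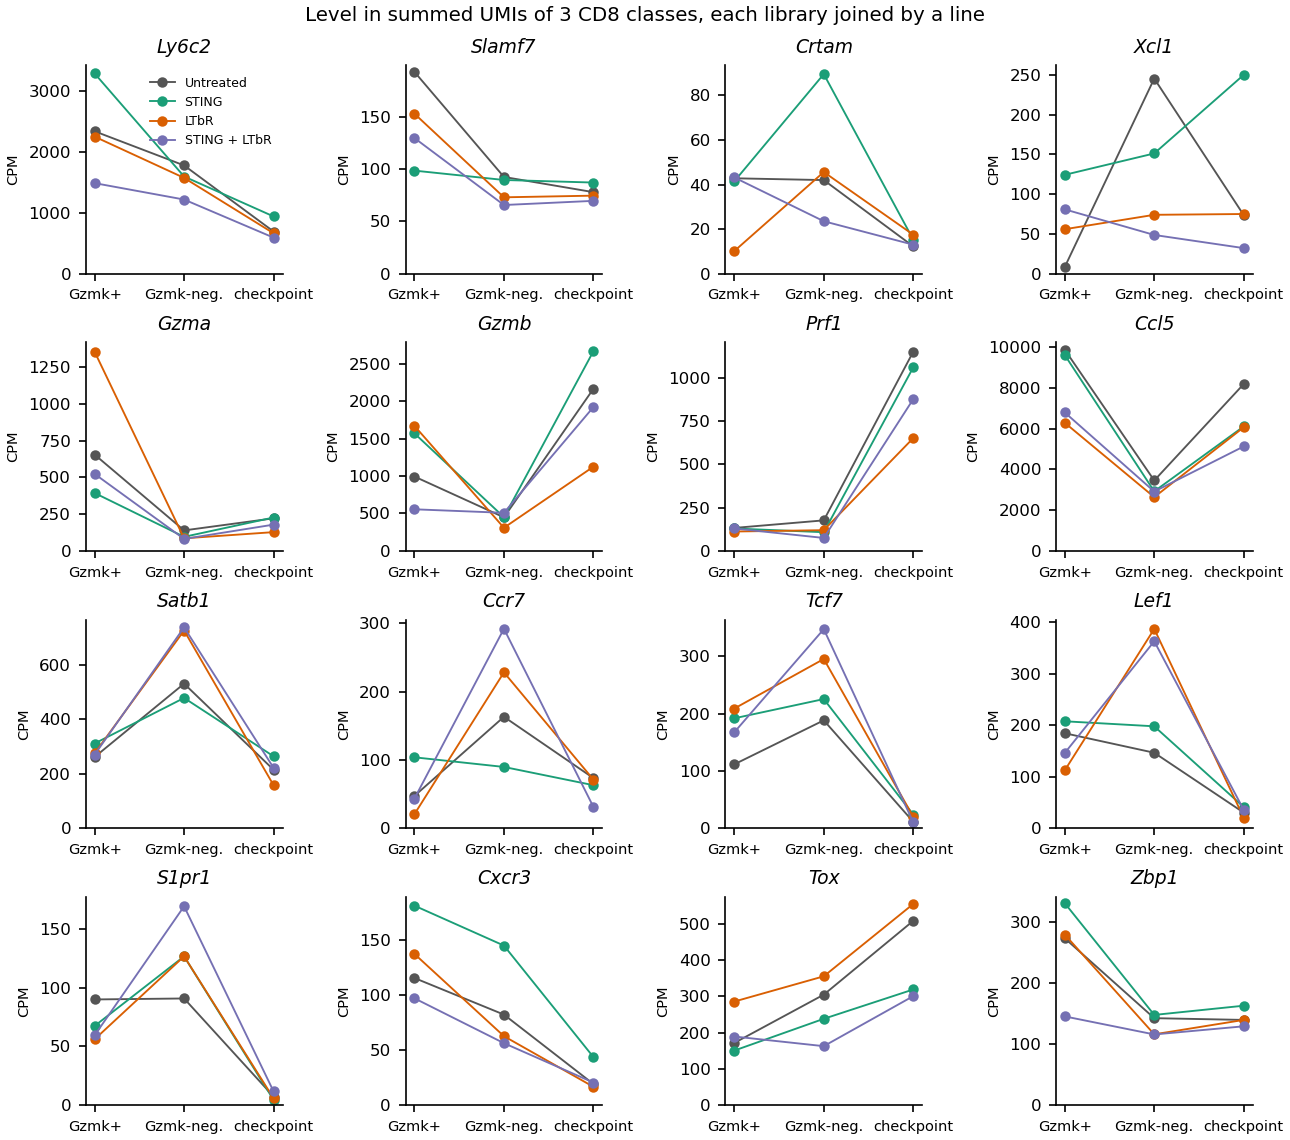
Level of 16 genes (vertical axis, CPM of summed UMIs, starting at 0) in Gzmk+ checkpoint-low, Gzmk-negative and checkpoint CD8 cells, with a line per library. Gzma is highest in Gzmk+ cells in each library, Satb1 and, except under the STING agonist, Ccr7 are highest in Gzmk-negative cells, and Prf1 is highest in checkpoint cells.

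Against checkpoint cells, the largest class of tumour CD8 cells, members had more memory and homing transcripts and fewer of exhaustion and effector function. Of 8937 genes, 359 were higher in members (4.02% of those tested) and 493 lower (5.52%) by the same edgeR test. The 2 classes are separated by Havcr2, Lag3 and Pdcd1, and checkpoint cells were deeper, at medians of 6394.5 to 6954 UMIs, against 3642 to 5352.5 for members. Of 13 memory and stem-like genes tested, 7 were higher (Tcf7, Lef1, S1pr1, Klf2, Slamf6, Bach2 and Bcl2) and none lower, with a median log2 ratio of 0.87 against -0.02 over all genes tested.

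Tcf7 was at 111, 192, 209 and 167 CPM in members and at 10.9, 23.5, 19.8 and 10.2 CPM in checkpoint cells, with no overlap and a log2 ratio of 3.44 ± 0.22 (edgeR adjusted p = 2.33e-09). Lef1 was at 184, 207, 112 and 146 CPM against 29.9, 40.7, 20.0 and 35.4 CPM (2.38 ± 0.19, edgeR adjusted p = 3.27e-08). S1pr1, the receptor for tissue exit, was at 89.9, 67.4, 56.0 and 59.4 CPM against 7.34, 4.49, 5.84 and 11.7 CPM (3.25 ± 0.34, edgeR adjusted p = 1.35e-06). All were called in every alternative in which they were tested. Slamf6, a marker of stem-like T cells, was at 29.97, 72.6, 56.0 and 75.6 CPM against 7.74 to 15.3 CPM (2.35 ± 0.33, edgeR adjusted p = 6.24e-05).

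Homing receptors of circulating T cells moved the same way. Of 12 tested, 6 were higher (Cxcr3, S1pr1, Cxcr4, Ccr2, Itgb1 and Itga4) and 2 lower (Cxcr6 and Cx3cr1). Cxcr3, the receptor for Cxcl9 and Cxcl10, was at 116, 181, 138 and 97.2 CPM against 19.2, 43.7, 16.7 and 20.6 CPM (2.46 ± 0.22, edgeR adjusted p = 1.71e-07). Cxcr6, typical of tumour-resident cells, was at 218, 275, 239 and 324 CPM against 543, 584, 460 and 515 CPM (-0.99 ± 0.15, edgeR adjusted p = 8.12e-05). In the tissue residency list 5 of 10 genes were lower (Cxcr6, Ccr8, Rgs2, Rgs1 and Itgae) and 1 higher (Cd69). Members held 2, 0, 1 and 4 UMIs of Ccr8 and 0, 0, 1 and 0 of Itgae. Both genes needed the checkpoint cells to pass the filter on low counts, so their place in this count is a description. Itgae was called in 1 of 9 alternatives.

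Exhaustion genes were lower for 8 of 12 tested and higher for none, besides the 3 that the rule used. Tox was at 171, 150, 285 and 189 CPM against 507, 318, 554 and 300 CPM, below the checkpoint value of its own library in 4 of 4 (-1.06 ± 0.16, edgeR adjusted p = 0.000109). Entpd1 was at 98.5, 62.2, 86.6 and 113 CPM against 239, 178, 173 and 202 CPM. Nrp1 (-2.33 ± 0.27) and Tnfrsf9 (-1.44 ± 0.20), which encode neuropilin-1 and 4-1BB, were lower in 4 of 4 libraries.

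Cytotoxic genes split. Gzma was higher than in checkpoint cells, where it was at 222, 227, 128 and 179 CPM (1.87 ± 0.26, edgeR adjusted p = 5.63e-05), as were Ctsw and Fasl. Prf1, by contrast, was at 1151, 1060, 652 and 877 CPM in checkpoint cells against 112 to 133 CPM in members (-2.87 ± 0.16, edgeR adjusted p = 2.78e-10). Nkg7, Cst7 and Srgn were lower too, and so was Gzmb (-0.75 ± 0.22, edgeR adjusted p = 0.0365), with the LTbR agonist library running opposite at 1670.5 against 1125 CPM. Interferon-γ (Ifng) was at 64.2, 119, 61.1 and 64.8 CPM against 412, 549, 293 and 336 CPM (-2.37 ± 0.18, edgeR adjusted p = 1.94e-08), and the chemokines Ccl3 (-2.56 ± 0.30) and Ccl4 (-1.72 ± 0.21) were lower in 4 of 4 libraries, while Ccl5 was slightly higher (0.35 ± 0.10, edgeR adjusted p = 0.0211). Of 9 effector differentiation genes 6 were lower (Id2, Tbx21, Prdm1, Zeb2, Bhlhe40 and Cx3cr1) and Klf3 (2.77 ± 0.23) and Klrg1 were higher, Klrg1 in only 4 of 10 alternatives.

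Of the proposed markers, Ly6c2 (1.67 ± 0.12, edgeR adjusted p = 7.37e-09), Slamf7 (0.91 ± 0.20, edgeR adjusted p = 0.00413) and Crtam (1.27 ± 0.39, edgeR adjusted p = 0.0432) were higher than in checkpoint cells and Xcl1 was not called (-0.63 ± 0.34, edgeR adjusted p = 0.325). Crtam was lower in the LTbR agonist library (10.2 against 17.5 CPM) and was called in 5 of 10 alternatives. Interferon-stimulated genes were higher for 5 of 13 (Ifit1, Ifit3, Zbp1, Rtp4 and Irf7). The other genes with the highest ratios were Ifngas1 (3.96), Esm1 (3.95), Tnfrsf26 (3.30), Dtx1 (3.10), Pde2a (2.81), Dtx4 (2.70) and Cmah (2.66), each at 82.9 CPM or less in members.

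The 10 genes with the lowest ratios had no UMI in any member. They passed the filter on low counts through the checkpoint cells alone, so they could only come out lower in members. Their ratios are a description. They were Ccl1, Rgs8, Gldc, Inhba, Rasal2, Clec5a, Igfbp7, Kit, Pdgfb and Slc30a4. Against a floor of 3 counts over the 4 libraries, Ccl1 was at least 13.1-fold lower, Rgs8 at least 12.2-fold lower and Slc30a4 at least 3.71-fold lower, the other bounds lying in between.

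Transcripts of other cell types moved with this contrast. Of 9 macrophage and monocyte markers 8 were lower in members, whose summed level was 77.7 to 822 CPM against 885 to 1515 CPM in checkpoint cells and 398 to 1210 CPM in Gzmk-negative cells. Among these 8, C1qa, C1qb, C1qc and Csf1r had no UMI in members of the STING agonist library. They needed the checkpoint cells to pass the filter on low counts, so their place in this count is a description. Neutrophil markers summed to 0 to 409 CPM in members, with 409 CPM in the STING agonist library, and to 1.99 to 449 CPM in checkpoint cells. B cell markers ran the other way, with Ighm called higher and sums of 42.8, 62.2, 66.2 and 205 CPM in members against 10.9, 7.48, 53.4 and 128 CPM in checkpoint cells. At least 2 markers of a macrophage, B cell, neutrophil or dendritic cell list occurred in 10, 3, 3 and 5 members. Without such cells in either class the numbers of calls were 376 higher and 482 lower against checkpoint cells, and 65 and 77 against Gzmk-negative cells. Irf8 was no longer called against Gzmk-negative cells with marker doublets removed, nor after thinning. The part of these transcripts in the lower levels of Cxcl2, Irf8 and Fabp5, which myeloid cells also express, was not tested as such. Of the macrophage markers 4 could be tested against Gzmk-negative cells, and none was called.

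**Figure D4:**
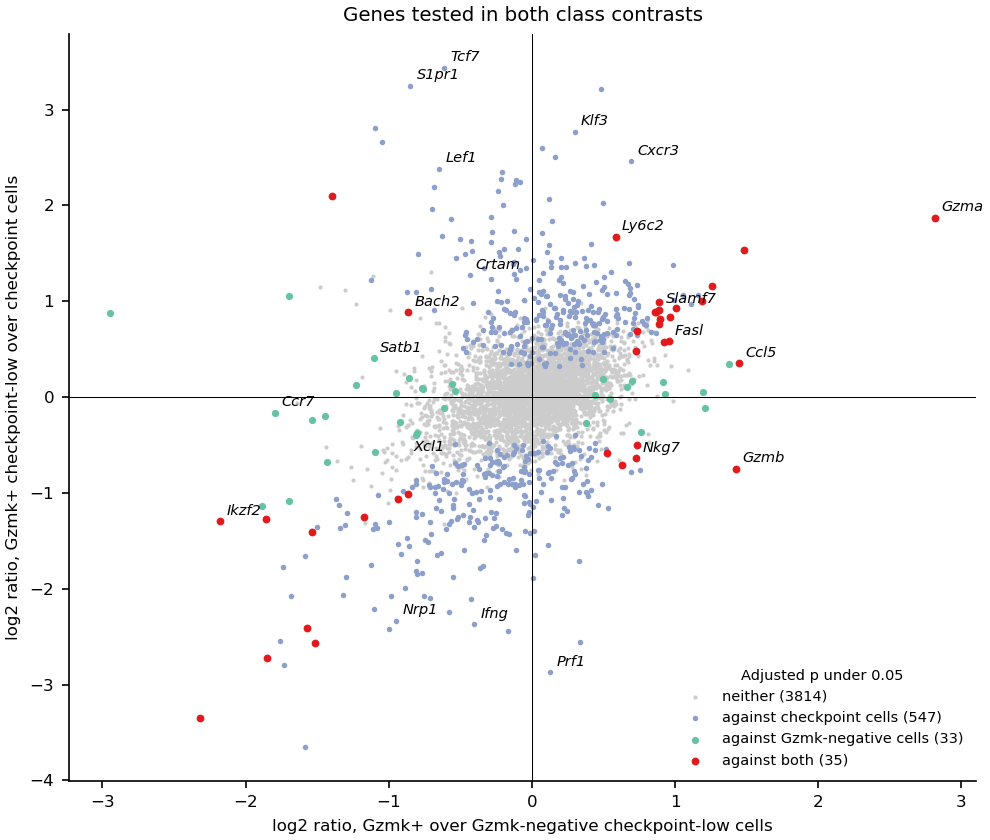
Log2 ratio of Gzmk+ checkpoint-low over Gzmk-negative cells (horizontal axis) and over checkpoint cells (vertical axis) for the 4429 genes tested in both, coloured by edgeR calls at an adjusted p under 0.05. Gzma, Ly6c2 and Ccl5 lie to the upper right, Tcf7, Lef1 and S1pr1 at the top left of centre, and Prf1 and Ifng at the bottom.

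Of 4429 genes tested in both contrasts, 18 were higher in members than in either neighbour, among them Gzma, Ccl5, Ly6c2, Slamf7, Ccr2, Fasl, Cd5 and Zbp1. Another 10 were lower than in either (Cxcl2, Grn, Ikzf2, Inpp4b, Irf8, Kcnq5, Kctd12, Mapkapk2, Nr4a3 and Phactr2). They come from the 35 higher and 33 lower calls against Gzmk-negative cells. Of all genes tested against checkpoint cells, 4.02% were called higher and 5.52% lower. The calls of Slamf7, Fasl, Ccr2, Cd5, Cxcl2 and Kctd12 against Gzmk-negative cells were lost in most alternatives, as given above. That of Irf8 was lost with marker doublets removed. Gzmb and Nkg7 were between the neighbours, with 3 other genes (AW112010, Ctsd and Gapdh), and so were Aff3 and Bach2 in the opposite order. The contrasts share the member libraries, so these counts are not independent.

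Treatments were then compared within members as log2 ratios of CPM + 10 to the untreated library, over genes with at least 50 UMIs in the 2 libraries. The 3 comparisons share the 41 untreated cells. Under the STING agonist 140 of 1376 genes were at least 1.5-fold higher (10.2%) and 93 lower (6.76%). Under the LTbR agonist 97 of 1368 were higher (7.09%) and 83 lower (6.07%), and under the combination 107 of 1298 were higher (8.24%) and 117 lower (9.01%). With 32 to 41 cells a library these counts hold counting error of small numbers, and intervals below cover only that error.

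Interferon-stimulated genes were lower under the combination than in untreated members. All 10 tested had a ratio below 0 and 8 were at least 1.5-fold lower (against 9.01% of all genes tested), with a median log2 ratio of -1.01. Ifit3 was at 218 CPM in untreated members, at 280 and 163 CPM under the STING and the LTbR agonist and at 54.0 CPM under the combination (log2 ratio -1.84, counting interval -3.05 to -0.66). Rtp4 was at 223, 301, 107 and 81.0 CPM (-1.35, -2.45 to -0.30), Irf7 at 257, 181, 153 and 108 CPM (-1.18, -2.17 to -0.22) and Bst2 at 428, 259, 331 and 200 CPM (-1.06, -1.82 to -0.33). The summed level of the 13 genes was 5160, 5602, 4680 and 2505 CPM, and the median per cell 3836, 3241, 3599 and 1289 CPM. The top 5 cells of each library held 39.2% to 50.9% of these UMIs.

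The neighbours showed less of this. The same 10 genes had a median log2 ratio of -0.34 in Gzmk-negative cells and -0.16 in checkpoint cells under the combination, with 2 and 1 of them at least 1.5-fold lower. Their summed level was 3440, 2618, 2448 and 2401 CPM in Gzmk-negative cells and 3609, 3610, 4295 and 3348 CPM in checkpoint cells. The difference between classes was not tested. In members with no sign of a marker doublet the median was -0.75 with 8 of 10 past 1.5-fold, and in those with at least 2 Gzmk UMIs it was -0.87. With members of at least 2000 UMIs thinned to 2000, the mean count of the 13 genes was 9.93, 11.1, 9.49 and 4.54 UMIs per member.

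Under the single agonists these genes did not move together. The STING agonist gave a median log2 ratio of 0.17 with 1 of 10 past 1.5-fold (Bst2, lower), and the LTbR agonist -0.38 with 3 of 10 (Isg15, Irf7 and Rtp4, lower).

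**Figure D5:**
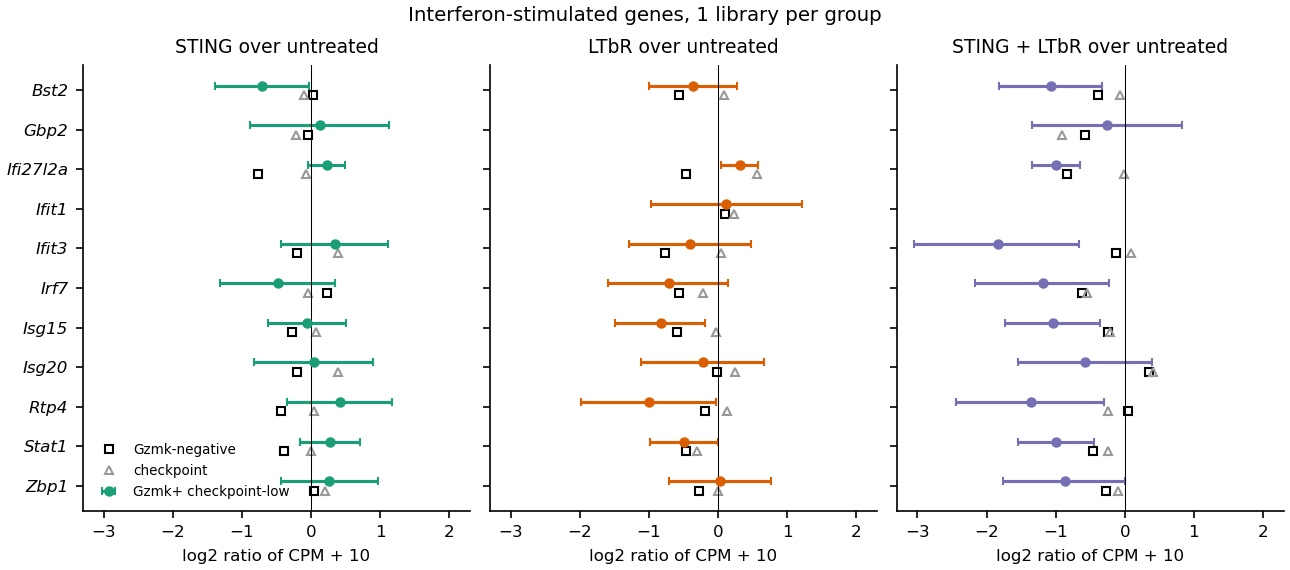
Log2 ratio to untreated (horizontal axis) of interferon-stimulated genes with at least 50 UMIs in the 2 libraries, in Gzmk+ checkpoint-low cells (filled circles), Gzmk-negative cells (squares) and checkpoint cells (triangles). Bars run between the opposite 95% counting limits of the 2 libraries and are wider than a 95% interval of the ratio. Under the combination all 10 filled circles lie below 0, with a median of -1.01. An empty line is a gene under 50 UMIs in that comparison.

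Cytotoxic genes differed between treatments in members. Gzmb was at 993, 1570, 1670 and 556 CPM, which gave log2 ratios of 0.66 (0.31 to 1.01), 0.74 (0.40 to 1.09) and -0.83 (-1.30 to -0.36). In checkpoint cells the same ratios were 0.30, -0.94 and -0.17. Gzma was at 655, 394, 1355 and 524 CPM, with ratios of -0.72 (-1.28 to -0.17) under the STING agonist, which turned to 0.12 in members with at least 2 Gzmk UMIs, and 1.04 (0.63 to 1.44) under the LTbR agonist, where 37.5% of members carried it against 39.0% untreated. The mean of the CPM of each cell gave 0.36 for the latter in place of 1.04. Ly6c2 was at 2334, 3281, 2246 and 1485 CPM, with log2 ratios of 0.49 (0.25 to 0.72) under the STING agonist and -0.65 (-0.94 to -0.36) under the combination. Xcl1 rested on 2, 24, 11 and 15 UMIs, too few for the minimum.

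Those of the 14 memory and stem-like genes with at least 50 UMIs over the 2 libraries were mostly at or above the untreated level. Genes under this minimum ran both ways. S1pr1 was at 89.9, 67.4, 56.0 and 59.4 CPM, and Slamf6 at 29.97, 72.6, 56.0 and 75.6 CPM. Klf2 was under the minimum for the LTbR agonist, where it was lower. Under the STING agonist 4 of 7 tested were at least 1.5-fold higher (Bcl2, Bach2, Klf2 and Tcf7) and none lower, under the LTbR agonist 2 of 6 higher (Tcf7 and Il7r) and 1 lower (Lef1), and under the combination 3 of 7 higher (Bach2, Klf2 and Il7r) and none lower. Il7r was at 180, 275, 321 and 383 CPM, and its ratio under the combination was 1.05 (0.29 to 1.82). Klf2 was at 154, 311, 66.2 and 416 CPM (combination 1.37, 0.60 to 2.17), although 1 cell held 44.2% of its UMIs in the combination library and the ratio was -0.091 in members with at least 2 Gzmk UMIs. The counting intervals of Tcf7, which are wide by construction, included 0 under all treatments. This does not show that Tcf7 was unchanged. Lymphotoxin-β (Ltb), a ligand of the receptor that the LTbR agonist targets, was at least 1.5-fold higher under each treatment, at 617 CPM against 244 CPM under the STING agonist (1.30, 0.68 to 1.94).

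Under the single agonists the lowest ratios belonged mostly to genes of antigen-presenting cells, with UMIs in few cells. Cd74 was at 1983 CPM in untreated members, of which 1 cell held 58.1%, and at 31.1 CPM under the STING agonist (-5.60, -6.67 to -4.55). H2-Aa, H2-Eb1, H2-Ab1, Apoe, Ifitm1, Ifitm2 and Ifitm3 completed the lowest 8 under that agonist. In untreated members 1 cell held 47.8% to 69.5% of the UMIs of each. With marker doublets removed the Cd74 ratio was -0.96 and that of H2-Eb1 -0.76. Under the LTbR agonist the lowest were Apoe, Ccl3, H2-Aa, Cd74, H2-Eb1, H2-Ab1, Jun and Cdk8, and under the combination Ifit3, Ifitm1, Slfn5, Ifitm2, Slfn1, Il1b, Slc9a3r1 and Rnf213. Of the last 8, Ifitm1 turned to 0.63 with marker doublets removed and Il1b to 3.86 in members with at least 2 Gzmk UMIs. Slfn5, Slfn1 and Rnf213 are known interferon-induced genes, and were at 64.8, 64.8 and 200 CPM under the combination against 227, 201 and 531 CPM in untreated members.

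The highest ratios were smaller. Under the STING agonist they were those of Man1a (1.69), Ltb (1.30), Sntb1, Psma5, Zfp292 (1.28 each), Gbp6 (1.26), Tagap (1.21) and Ghitm (1.15). Under the LTbR agonist Cxcl10 (2.39, with 81.4% of its UMIs in 1 cell) and Lyz2 (1.64, 77.4% in 1 cell) led, followed by Bcas3 (1.34), Setbp1 (1.26), Ppp1r16b (1.24), Sh2d1a (1.04), Gzma (1.04) and Prdx2 (1.02). Under the combination they were Errfi1 (1.62), Ppp1r15a (1.57), St6galnac3 (1.52), Klf2 (1.37), Setbp1 (1.24), Itsn2 (1.22), Klf6 (1.19) and Irak2 (1.16).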

How the data were processed

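The authors made 10x Genomics 5′ libraries of sorted CD45+ cells and counted UMIs with Cell Ranger 7.1.0 on mm10, per the submitters' processing notes. The deposited matrix holds raw UMI counts of 32285 genes in 24839 barcodes of 4 libraries, told apart by the barcode suffix that the labels assign. Members, gene lists and tests were chosen with earlier results of these data known. Doublets were kept, because no removal is stated, and removing cells with at least 2 markers of another leukocyte type was an alternative.

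UMIs were summed per library and class. Class contrasts (8 sums) used edgeR 4.0.16 (TMM normalization, filterByExpr, quasi-likelihood test, library as a block) in R 4.3.3, with calls at an adjusted p of 0.05. Genes of the rule were left out of calls. The SE of a log2 ratio is its size divided by the square root of the F statistic. Libraries are the replicates of these contrasts, and the 4 libraries came from differently treated mice. Sharing a library pairs the 2 classes by design. DESeq2 1.42.0 was an alternative. Counts were also simulated from 1 pooled proportion per gene, without library differences, at a fixed dispersion, with changes only in genes well counted in members. In these, 4-fold changes were recovered for 96 of 97 genes (4214 tested) against Gzmk-negative cells and for 100 of 100 (8762 tested) against checkpoint cells. For 2-fold changes it was 57 of 98 and 55 of 100, with 7 and 2 false calls. These settings differ from the data, so the rates do not measure the power of the real contrasts. Treatments used log2(CPM + 10) and no test, since each group has 1 library. The interval of a ratio was formed from the exact Poisson 95% limits of the 2 libraries, the lower of 1 against the upper of the other. Ratios of shares were treated in the same way. Such an interval is wider than a 95% interval of the ratio, so one that includes no change does not show its absence. Shares have exact Clopper-Pearson 95% intervals from scipy 1.17.1. All intervals cover counting error only.

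Named genes were the proposed markers, of each list the 4 largest absolute log2 ratios among genes tested, the 10 highest and 10 lowest calls with the same sign in 4 of 4 libraries, and the 8 highest and 8 lowest treatment ratios among genes with at least 50 UMIs over 2 libraries and a UMI in 10% of members of either. Genes of the rule, mitochondrial, ribosomal protein, Gm, Rik and V(D)J genes were left out of the ranks. Other genes in the text (Trbv segments, Ctsd, Gapdh, Aff3, AW112010, other genes called in both contrasts and members of lists beyond the 4) were named after their values were seen. A result of the class contrasts is not reported here.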

Additional observations from a re-analysis of the deposited data

Results flagged for a closer look

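Genes named under a treatment or as markers were examined for LTbR agonist effects that ran one way without the STING agonist (LTbR agonist against untreated) and the other way with it (combination against STING agonist), with both counting intervals clear of 0. The difference was not tested, since each group has 1 library. This held for 10 genes, and for most of them few cells held the UMIs. No share over all genes was computed for this rule, so the count is a description.

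For Cd74 the log2 ratios were -3.12 without and 5.52 with the STING agonist, for H2-Aa -3.14 and 6.21, for H2-Ab1 -2.71 and 4.23, for H2-Eb1 -2.73 and 5.65, and for Apoe -3.26 and 2.72. For Ifitm2 they were -1.17 and 2.39, for Ifitm3 -1.22 and 3.56, for Ccl3 -3.18 and 1.62, and for Jun -1.84 and 1.51. For Cdk8 they were -1.27 and 0.23, and in the untreated library 1 cell held 51.7% of its UMIs. Marker doublets numbered 10, 3, 3 and 5 of the members of the untreated, STING agonist, LTbR agonist and combination libraries, and their part in these ratios was not tested as such. With them removed the LTbR agonist ratio to untreated was -0.67 for Cd74, -0.84 for H2-Aa, 0.66 for H2-Ab1, 0.92 for H2-Eb1 and -0.32 for Cdk8. The ratio of the combination to the STING agonist was not recomputed without them. Whether these genes would still run opposite ways was thus not tested.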

How the results depend on the processing

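Over thinning, other denominators, at least 2 Gzmk UMIs, a mitochondrial limit of 10% and removal of marker doublets, the ratio of the members' share to untreated ranged from 1.25 to 2.00 under the STING agonist, from 0.882 to 1.23 under the LTbR agonist and from 0.934 to 1.26 under the combination. Against Gzmk-negative cells, 35 genes higher and 33 lower became 14 and 11 with DESeq2, 58 and 215 without a filter on low counts, 20 and 27 after thinning, 65 and 77 with marker doublets removed, and 3 to 30 and 1 to 53 when a library was left out. Against checkpoint cells, 359 and 493 became 162 and 222 after thinning, 207 and 442 with at least 2 Gzmk UMIs, 265 and 311 with DESeq2, and 192 to 268 and 315 to 427 when a library was left out. Without the replicate block that pairs classes by library, the counts were 30 and 34 against Gzmk-negative and 313 and 356 against checkpoint cells.

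Treatment counts of at least 1.5-fold (higher, lower) moved most without a minimum of UMIs, to 2589 and 1883 under the STING agonist, 2340 and 1977 under the LTbR agonist and 2458 and 1944 under the combination. With a pseudocount of 50 they were 92 and 61, 58 and 54, and 66 and 89. With marker doublets removed they were 106 and 54, 63 and 48, and 67 and 50, and with at least 2 Gzmk UMIs 85 and 56, 72 and 67, and 57 and 45.

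Log2 ratios to untreated changed sign with marker doublets removed, under the STING agonist for Ccl3 (0.32), Fcer1g (1.44), Fos (-0.043) and Tyrobp (0.65), under the LTbR agonist for Fcer1g (1.07), H2-Ab1 (0.66), H2-Eb1 (0.92), Lyz2 (-0.18) and Tyrobp (0.63), and under the combination for Fcer1g (3.23) and Ifitm1 (0.63). With at least 2 Gzmk UMIs they did so under the STING agonist for Ccl3 (0.48), Ccl4 (0.81) and Gzma (0.12), under the LTbR agonist for Tox (-0.59), and under the combination for Apoe (3.31), Cd69 (-0.087), Fcer1g (1.07), Ier2 (-0.56), Il1b (3.86) and Klf2 (-0.091). The cause was not tested. Each treatment value rests on 1 library of 32 to 41 members.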
